A study of Mus musculus with 45 samples.

Results

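Gene expression in the colonic epithelium, the single cell layer that lines the large bowel, was compared between 5 formerly obese and 5 obese mice. These are 10 of the 15 RNA-seq libraries and of the 45 samples in the series, chosen by diet group, with 1 library per mouse. All were male C57BL/6 mice, of the C57BL/6J substrain in the study's methods, that entered the diets at 6 weeks of age and were followed for 20 weeks. Obese mice ate a high-fat diet with 60% fat for the whole 20 weeks. Formerly obese mice ate that diet for 15 weeks and a low-fat diet with 10% fat for the last 5 weeks. Control mice, whose 5 libraries entered the same fit, ate the low-fat diet for all 20 weeks. The comparison asks what 5 weeks of low-fat diet change after obesity has developed. Formerly obese and obese mice differed in body weight history and also in what they were eating when the colon was taken, so that weight loss and the diet itself cannot be told apart. The epithelium was released with EDTA from the entire colon, so each library mixes all segments and all epithelial cell types. A lower level of a gene can mean fewer cells of the type that makes it or less RNA per cell, which bulk libraries do not separate.

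The colonic epithelium renews itself from stem cells at the crypt base. As daughter cells move up the crypt they stop dividing and become absorptive colonocytes, mucus-making goblet cells, hormone-making enteroendocrine cells or tuft cells. Colonocytes at the surface take up sodium chloride, water and short-chain fatty acids from the lumen, secrete bicarbonate and burn butyrate as a main fuel. The cells also make fatty acids themselves, and stearoyl-CoA desaturase, whose gene responds to dietary fat and to insulin, turns saturated into monounsaturated ones.

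Library totals were 15591904 to 16749096 counts in obese and 16114562 to 22762095 counts in formerly obese mice. The mean difference of 2257488 counts had an exact two-sided permutation p of 0.0317, which became 0.0635 without any 1 of obese replicates 1 and 4 and formerly obese replicates 1, 3, 4 and 5, and the difference was 1192019 counts without formerly obese replicate 3. Levels are given as CPM, counts scaled to a common library total with TMM factors. The epithelial gene Epcam stood at 2079 to 2190 CPM in obese and 2009 to 2178 CPM in formerly obese mice, and the distal colon gene Hoxb13 at 286 to 371 and 231 to 308 CPM. The adipocyte genes Lep and Plin1 had 0 counts in all 10 libraries and Adipoq in 8 of them. The 8 smooth muscle markers summed to 0.917 to 2.89 CPM in obese and 0.339 to 1.19 CPM in formerly obese mice, too low for any of them to be tested, and the fibroblast markers to 28.2 to 38.7 and 25.9 to 50.7 CPM. On the first principal component of the 10 libraries, which held 25.8% of the variance, formerly obese mice 3 and 5 lay at 23.8 and 22.8, apart from the other 8, which lay between -14.9 and 6.78.

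A total of 343 of 12961 tested genes were called different between formerly obese and obese mice (2.65% of the genes tested), 159 higher (1.23%) and 184 lower (1.42%) in formerly obese mice. A call required a fold change over 1.2 in either direction, p under 0.01 and an adjusted p under 0.25, all from edgeR's quasi-likelihood test with Benjamini-Hochberg adjustment over the 12961 genes. Levels are means ± SD over 5 mice, and log2 fold changes, given ± SE, are formerly obese over obese unless another pair is named. The changes were small. In absolute terms their median was 0.41 on the log2 scale, and 31 of the called genes exceeded 1. An adjusted p under 0.05 was reached by 25 genes, 9 higher and 16 lower (0.193%), of which 22 also passed the fold cutoff. The median log2 fold change over all tested genes was 0.0023, and its 5th and 95th percentiles were -0.28 and 0.29. An unadjusted p under 0.05 was reached by 13.4% of genes, 817 with a positive and 914 with a negative log2 fold change. The count of calls fell to 167 without formerly obese replicate 5, to 195 without obese replicate 1 and to 209 without obese replicate 2, of which 154, 183 and 192 were among the 343. It was 309 without formerly obese replicate 3. In the same fit, 1.58% of genes were called between obese and control mice and 3.72% between formerly obese and control mice. These comparisons share libraries with the main one, and their values are set beside it for single genes only.

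**Figure D1:**
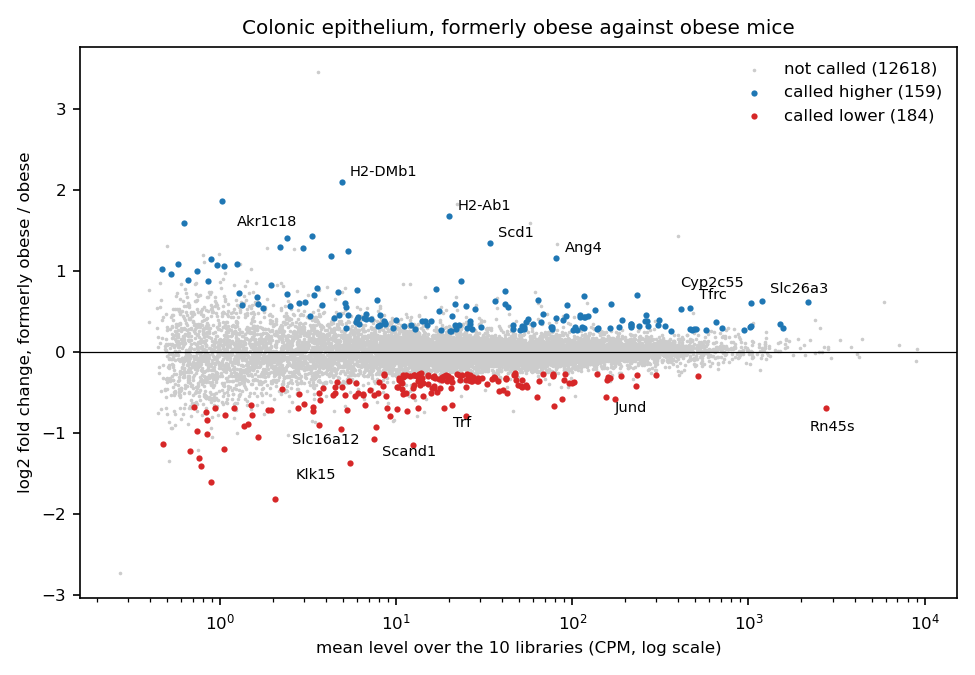
Each point is 1 of the 12961 tested genes, with the mean level over the 10 libraries in CPM on a log axis and the log2 fold change of formerly obese over obese mice on the vertical axis. Blue points are the 159 genes called higher and red points the 184 called lower, and most of them lie within 1 log2 unit of 0.

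Scd1 showed the clearest difference. This gene (mm10 chr19:44394450-44407709) encodes stearoyl-CoA desaturase 1, which makes monounsaturated from saturated fatty acids. Its level was 18.6, 18.7, 17.8, 22.9 and 18.7 CPM in obese mice and 41.0, 35.8, 67.3, 59.5 and 41.2 CPM in formerly obese mice. The groups did not overlap, and the lowest formerly obese mouse stood well above the highest obese mouse. The log2 fold change was 1.34 ± 0.16 (SE), a 2.54-fold difference with an adjusted p of 0.000747, and the call held in each of the 10 repeats that left out 1 mouse. Against control mice at a mean of 56.2 CPM, the log2 fold change was -1.54 in obese (adjusted p = 0.00022) and -0.19 in formerly obese mice (adjusted p = 0.54).

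Scd1 was the 1 called gene of the 18 tested genes of fatty acid synthesis and desaturation, a list whose median log2 fold change was 0.06. Scd2, its paralog, was at 1448 against 1583 CPM in obese and formerly obese mice (log2 0.13, not called). Fasn, which builds palmitate, was at 405 against 374 CPM (log2 -0.11), and Acly, which supplies its acetyl-CoA, at 640.3 against 621 CPM (log2 -0.04), neither of them called. In this list, 5 genes had an unadjusted p under 0.05 with a positive and 0 with a negative log2 fold change. Over the 12961 tested genes these counts were 817 and 914. Besides Scd1, the 5 included Elovl5, Fads3 and Acsl3, which were not called. Most other parts of lipid metabolism had no called member. This was so for 23 genes of cholesterol synthesis and uptake (median -0.04), 22 of mitochondrial fat oxidation and ketogenesis (median 0.0015), 14 of peroxisomal fat oxidation, 16 of triglyceride storage and lipolysis, 13 of fat absorption, 12 of short-chain fatty acid uptake and use, and 20 of phospholipid synthesis. In those 7 lists, 9 genes had an unadjusted p under 0.05 with a positive and 2 with a negative log2 fold change. Among the positive ones were Slc16a1, a carrier of butyrate and lactate (log2 0.26), Acss1, a mitochondrial acetyl-CoA synthetase (log2 0.20), and Acadsb, a short branched-chain acyl-CoA dehydrogenase (log2 0.20). Cpt1a, the control point of fat entry into mitochondria, had a log2 fold change of 0.01.

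**Figure D2:**
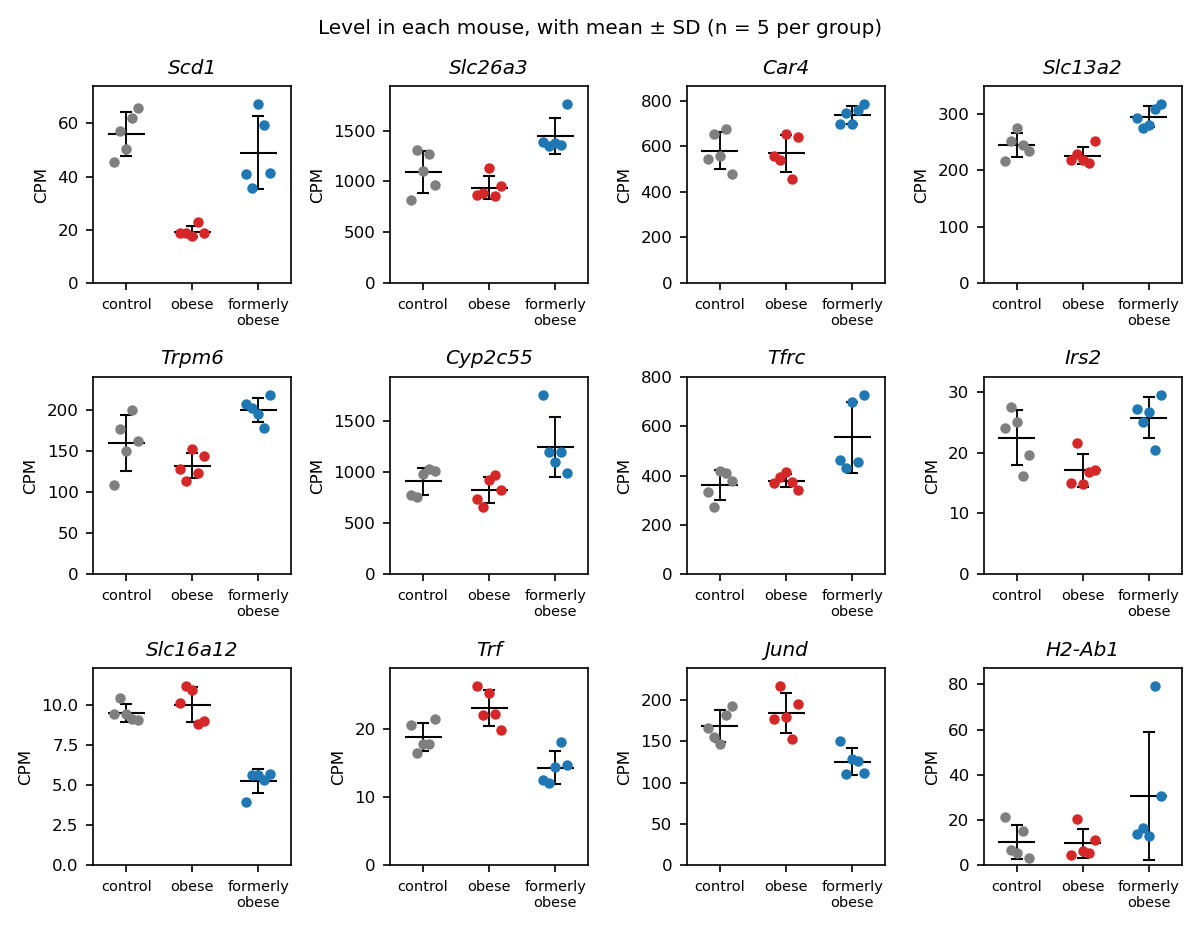
Each panel gives the level of 1 gene in CPM in the 5 control (grey), 5 obese (red) and 5 formerly obese mice (blue), with the mean as a bar and the SD as whiskers. The Scd1 level in the obese mice lay below that in all control and formerly obese mice, the Slc16a12 level in the formerly obese mice below that in all others, and H2-Ab1 was led by formerly obese mouse 4 at 79.3 CPM.

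Several genes of mature surface colonocytes and of ion transport were higher in formerly obese mice. Slc26a3 (chr12:31438219-31473919) encodes the chloride-bicarbonate exchanger that absorbs chloride at the surface. Its level was 872, 882, 1136, 854 and 954 CPM in obese mice and 1386, 1354, 1379.5, 1361 and 1764 CPM in formerly obese mice. The groups did not overlap, and formerly obese mouse 5 stood above the other 4. The log2 fold change was 0.62 ± 0.12 (adjusted p = 0.0433). Car4 (chr11:84957754-84966054), the membrane carbonic anhydrase of the colonocyte surface, was at 556, 541, 656, 455 and 641 CPM in obese mice and 698, 746, 700.3, 759.9 and 787 CPM in formerly obese mice. It was higher in each formerly obese than in each obese mouse (log2 0.37 ± 0.10, adjusted p = 0.0925). Slc9a3 (chr13:74121515-74166064), the sodium-proton exchanger that takes up sodium beside Slc26a3, was at 62.1, 78.8, 92.7, 87.6 and 124 CPM in obese mice and 143, 103, 124, 169 and 181 CPM in formerly obese mice. The groups overlapped through obese mouse 5, and the log2 fold change was 0.69 ± 0.18 (adjusted p = 0.1), with the call lost without formerly obese replicate 5 (log2 0.60).

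All 10 listed colonocyte markers were tested. Of these, 3 were called higher and 0 lower, against 1.23% and 1.42% of all tested genes. An unadjusted p under 0.05 with a positive log2 fold change was reached by 8, against 817 of all 12961. The median was 0.36, against 0.0023 over all tested genes. The third colonocyte call was Guca2a, the guanylin hormone that colonocytes and goblet cells release into the lumen (log2 0.29, adjusted p = 0.154). It was lost without obese replicates 1, 2 and 5 and formerly obese replicates 3 and 5, with log2 fold changes of 0.24 to 0.29. Car1, a cytosolic carbonic anhydrase of the colon, was at 4634 against 7129 CPM (log2 0.62), Aqp8, a water channel, at 257 against 335 CPM (log2 0.38) and Tmigd1 at 96.4 against 147 CPM (log2 0.61), none of them called. Over the 10 repeats that left out 1 mouse, 2 to 5 of the colonocyte markers were called and the list median ran from 0.32 to 0.42. Of 23 genes of colonic ion and water transport, Car4, Slc26a3 and Slc9a3 were called higher and 0 lower, with a median of 0.05. The basolateral potassium channel Kcnn4 was at 70.9 against 59.7 CPM (log2 -0.25), not past the fold cutoff. Slc26a3, Slc9a3 and Car4 did not pass the cutoffs in obese against control mice (log2 -0.22, 0.04 and -0.03) and did so in formerly obese against control mice (log2 0.41, 0.74 and 0.34).

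Other carriers and surface enzymes stood among the 12 genes with the smallest p in this direction. Slc13a2 (chr11:78397276-78422185), which takes up citrate and other dicarboxylates with sodium, was at 219, 228, 218, 212 and 251 CPM in obese mice and 292, 275, 280.0, 309 and 317 CPM in formerly obese mice. The groups did not overlap (log2 0.39 ± 0.06, adjusted p = 0.0221). It was the 1 called gene among 19 of the tricarboxylic acid cycle and citrate transport (median 0.05), in which citrate synthase, Cs, had a log2 fold change of 0.18 and Idh2 of 0.25. In this list, 5 genes had an unadjusted p under 0.05 with a positive and 1 with a negative log2 fold change. For 5 of the 19, each formerly obese mouse was above each obese mouse, against 1.49% of all tested genes. Trpm6 (chr19:18749983-18892511), the magnesium channel of the colon, was at 128, 113, 152, 123 and 144 CPM in obese mice and 206, 202, 195, 178 and 218 CPM in formerly obese mice. Each formerly obese mouse was above each obese mouse (log2 0.60, adjusted p = 0.0513). Dpep1, a membrane dipeptidase, was at 339 ± 17.6 CPM in obese and 489 ± 71.0 CPM in formerly obese mice (SD, n = 5; log2 0.53, adjusted p = 0.0433), again without overlap. Mep1b, a subunit of the brush border protease meprin, was also called higher (log2 0.31, adjusted p = 0.133), but not without obese replicates 1 and 2 or formerly obese replicate 5 (log2 0.26, 0.29 and 0.26). In the other direction stood Slc7a9 and Slc6a20a, the 2 called genes of 17 amino acid transporters, against 1.42% of all tested genes called lower. Slc7a9, the light chain of the cystine and basic amino acid carrier, was at 23.3, 24.7, 25.8, 22.8 and 30.1 CPM in obese mice and 16.4, 19.9, 12.3, 23.2 and 9.33 CPM in formerly obese mice. The groups overlapped through formerly obese mouse 4 (log2 -0.65, adjusted p = 0.109). Slc6a20a, a proline carrier, had a log2 fold change of -0.45 (adjusted p = 0.139) and lost its call without obese replicates 1, 2 and 4 and formerly obese replicates 3 and 5 (log2 -0.45 to -0.38).

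Some genes that handle drugs and other foreign compounds were also higher. Of 32 listed genes of xenobiotic metabolism 31 were tested, and 4 were called higher and 0 lower, against 1.23% and 1.42% of all tested genes. An unadjusted p under 0.05 with a positive log2 fold change was reached by 12, against 817 of all 12961. The list median was 0.17. Cyp2c55 (chr19:39007019-39042687), a cytochrome P450 of the colon that oxidises arachidonic acid, was at 737, 658, 922, 976 and 827 CPM in obese mice and 1761, 1198, 1103, 1197 and 991 CPM in formerly obese mice. Each formerly obese mouse was above each obese mouse, and mouse 1 was the highest (log2 0.60 ± 0.14, adjusted p = 0.0751). Its neighbour Cyp2c65 (chr19:39061006-39093948) was at 221 ± 32.4 CPM in obese and 304 ± 36.7 CPM in formerly obese mice (log2 0.46, adjusted p = 0.121). Reads shared between these similar genes could be split between them. Gsta4, which conjugates lipid peroxidation products to glutathione, was at 46.0 ± 2.64 CPM in obese and 57.4 ± 5.14 CPM in formerly obese mice (log2 0.32, adjusted p = 0.0623), and the carboxylesterase Ces1f at 98.7 ± 12.7 CPM in obese and 133 ± 18.9 CPM in formerly obese mice (log2 0.43, adjusted p = 0.137). Gsta4 was also called lower in obese against control mice (log2 -0.41) and had a log2 fold change of -0.09 in formerly obese against control mice. Cyp2c55 and Cyp2c65 were called higher in formerly obese against control mice (log2 0.46 and 0.57). They were not called in obese against control mice (log2 -0.15 and 0.11). Ces1f was called in neither (log2 -0.21 in obese and 0.23 in formerly obese against control mice). The calls of Cyp2c65 and Ces1f were lost without obese replicates 1, 2 and 5 (log2 0.45, 0.42 and 0.40, and 0.42, 0.40 and 0.40), and that of Ces1f also without formerly obese replicate 5 (log2 0.37).

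**Figure D3:**
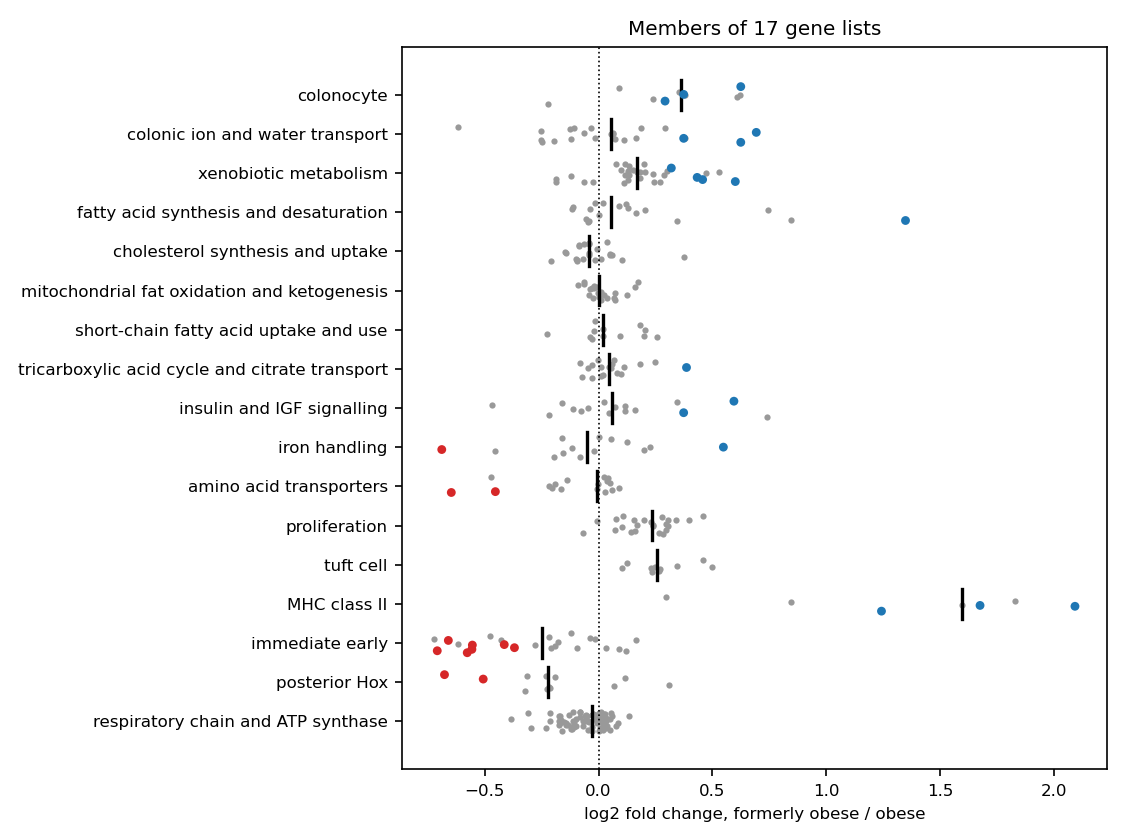
Each point is a tested gene of 1 of 17 gene lists, placed by its log2 fold change of formerly obese over obese mice. Coloured points were called, black bars are list medians and the dotted line is the median of all genes at 0.0023. The colonocyte, xenobiotic, proliferation, tuft cell and MHC class II lists lie to the right of that line and the immediate early and posterior Hox lists to its left.

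Slc16a12 was the clearest gene in the lower direction. It (chr19:34668406-34747111) encodes a creatine carrier of the plasma membrane, and its level was 10.1, 11.2, 10.9, 8.80 and 9.01 CPM in obese mice and 3.96, 5.64, 5.65, 5.32 and 5.71 CPM in formerly obese mice. No formerly obese mouse reached the lowest obese mouse. The log2 fold change was -0.93 ± 0.11 (adjusted p = 0.000747), and the call held in each of the 10 repeats that left out 1 mouse. Control mice had a mean of 9.48 CPM, with log2 fold changes of 0.08 in obese and -0.85 in formerly obese mice against them. It was the 1 called gene among 18 of sulfur amino acid, taurine and creatine metabolism. Csad, which makes the taurine precursor hypotaurine, was at 56.1 against 47.2 CPM (log2 -0.25, below the fold cutoff).

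A pair of iron genes moved in opposite directions. Trf (chr9:103208876-103230286), the transferrin that carries iron, was at 26.4, 22.2, 25.3, 22.3 and 19.9 CPM in obese mice and 12.6, 12.03, 14.4, 18.1 and 14.7 CPM in formerly obese mice, without overlap (log2 -0.69 ± 0.11, adjusted p = 0.0191). Tfrc (chr16:32608896-32632794), the transferrin receptor, was at 372, 394, 415, 375 and 342 CPM in obese mice and 464, 430.0, 699, 454 and 728 CPM in formerly obese mice. Formerly obese mice 3 and 5 stood well above the other 3, all 5 exceeded the obese mice (log2 0.55, adjusted p = 0.0972), and the call was lost without formerly obese replicate 5 (log2 0.43). These were the 2 called genes of 14 of iron handling, against 2.65% of all tested genes. In that list the ferritin chain Fth1 had a log2 fold change of 0.06, the exporter Slc40a1 of -0.16 and the ferroxidase Heph of 0.20, none of them called.

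Insulin and growth factor signalling gave 2 called genes of 16, both higher, against 1.23% of all tested genes called higher. Irs2 (chr8:10986964-11008430), an adaptor of the insulin receptor, was at 15.0, 21.6, 14.8, 16.9 and 17.2 CPM in obese mice and 27.3, 25.1, 26.7, 20.5 and 29.6 CPM in formerly obese mice. The groups overlapped by 1 mouse on each side (log2 0.59, adjusted p = 0.0623). Igf2bp2 (chr16:22059009-22163299), an RNA-binding protein that acts on Igf2 and other messages, was at 56.4, 53.5, 60.5, 57.8 and 59.7 CPM in obese mice and 74.5, 67.9, 79.9, 69.3 and 81.4 CPM in formerly obese mice and did not overlap (log2 0.37, adjusted p = 0.0221). The receptor Insr was at 173 against 187 CPM (log2 0.12) and the kinase Akt1 at 208 against 197 CPM (log2 -0.08), neither of them called. Glucose uptake and glycolysis had 0 called genes of 20, with Hk2 at 151 against 180.0 CPM (log2 0.26) and 2 of the 20 at an unadjusted p under 0.05.

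Several immediate early genes were lower in formerly obese mice. These genes answer growth factors and stress within minutes, and many encode subunits of the transcription factor AP-1, a dimer of Jun and Fos family proteins. Of 25 listed 24 were tested, and 7 were called lower and 0 higher, against 1.42% and 1.23% of all tested genes. An unadjusted p under 0.05 came with a negative log2 fold change for 12 and a positive one for 1, against 914 and 817 of all 12961. The list median was -0.25. Of the called members, Jun, Junb, Jund and Fosb are AP-1 subunits. The 150 bases before their start sites (RefSeq, GRCm38.p6) are printed 5′ to 3′ on the strand of the gene. They show the promoters of the AP-1 subunits that were called lower, with CCAAT boxes (CCAAT) and GC boxes (GGGCGG), on either strand, in capitals:

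Jun, chr4:95052223-95052372, minus strand: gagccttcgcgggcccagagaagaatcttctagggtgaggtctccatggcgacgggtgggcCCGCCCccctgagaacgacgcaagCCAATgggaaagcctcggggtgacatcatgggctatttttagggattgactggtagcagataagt

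Junb, chr8:84978749-84978898, minus strand: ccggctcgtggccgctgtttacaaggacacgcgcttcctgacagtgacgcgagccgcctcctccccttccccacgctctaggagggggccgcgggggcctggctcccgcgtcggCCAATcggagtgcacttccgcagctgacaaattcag

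Jund, chr8:70697589-70697738, plus strand: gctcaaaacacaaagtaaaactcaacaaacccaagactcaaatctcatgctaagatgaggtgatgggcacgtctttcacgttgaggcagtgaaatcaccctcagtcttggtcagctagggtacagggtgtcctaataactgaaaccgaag

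Fosb, chr7:19310046-19310195, minus strand: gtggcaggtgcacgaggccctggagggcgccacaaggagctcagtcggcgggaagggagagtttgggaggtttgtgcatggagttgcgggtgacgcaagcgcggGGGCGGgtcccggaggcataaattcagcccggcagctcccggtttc

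A CCAAT box stood in the Jun and Junb windows and a GC box in those of Jun and Fosb. Over all 32851 promoters of the reference table, 24.5% held a CCAAT box and 28.6% a GC box in the same window. The cyclic AMP response element TGACGTCA, in 1.36% of promoters, was in none of the windows of Jun, Junb, Jund, Fosb and Cyr61, the 5 of the 7 called immediate early genes with an entry. These are matches of letters in a fixed window and not measured binding sites. The longest GENCODE transcript of Jund has 1668 bases, shorter than its locus (chr8:70697739-70700616). Whether the colonic epithelium uses the RefSeq starts taken here was not tested. The 4 windows held 58% (Jun), 68% (Junb), 45.3% (Jund) and 66.7% (Fosb) GC, against a median of 54% for all promoters.

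Jund (chr8:70697739-70700616) was at 178, 217, 180.0, 152 and 196 CPM in obese mice and 150.1, 110.2, 129, 127 and 112 CPM in formerly obese mice, without overlap (log2 -0.56 ± 0.10, adjusted p = 0.0297), and its log2 fold change was -0.31 once the trend on GC content was removed. Junb (chr8:84976909-84978748) was at 94.3, 122, 106, 80.4 and 122 CPM in obese mice and 85.2, 57.4, 70.9, 73.2 and 64.6 CPM in formerly obese mice. Obese mouse 4 lay below formerly obese mouse 1, and the other mice did not overlap (log2 -0.58 ± 0.12, adjusted p = 0.0541). Fosb (chr7:19302696-19310045) was at 83.8, 92.8, 85.1, 104 and 119 CPM in obese mice and 45.6, 95.6, 56.2, 67.0 and 42.7 CPM in formerly obese mice. Formerly obese mouse 2 lay among the obese mice, and the call (log2 -0.66, adjusted p = 0.152) was lost without obese replicates 2, 4 and 5 or formerly obese replicates 1, 3 and 5 (log2 -0.68 to -0.55). Jun was at 261 ± 47.1 CPM in obese and 196 ± 14.4 CPM in formerly obese mice (log2 -0.41, adjusted p = 0.0886). Ier2, a small nuclear protein gene, was at 115 ± 13.2 CPM in obese and 88.7 ± 5.48 CPM in formerly obese mice (log2 -0.37, adjusted p = 0.0623), and Klf10, a repressor that answers transforming growth factor beta, at 74.5 ± 5.14 CPM in obese and 50.7 ± 11.9 CPM in formerly obese mice (log2 -0.55, adjusted p = 0.0541). Cyr61, a matrix protein, had a log2 fold change of -0.71 (adjusted p = 0.12), with the call lost without obese replicates 2 and 5 (log2 -0.64 and -0.60). The members that did not pass included Fos at 383 against 358 CPM (log2 -0.09), Atf3 at 99.2 against 73.7 CPM (log2 -0.43) and Klf4 at 756 against 775 CPM (log2 0.03). The growth factor genes Areg and Hbegf, ligands of the EGF receptor, had log2 fold changes of -0.35 and -0.30, and none of the 10 genes of that receptor and its ligands was called. With each library's trend on GC content removed, 6 of the 24 immediate early genes were called lower, the median was -0.22, and Ier2 was no longer past the fold cutoff (log2 -0.24). Without 1 mouse in turn, 5 to 8 were called lower. Jund, Ier2, Junb, Fosb and Cyr61 did not pass the cutoffs in obese against control mice (log2 0.13, -0.07, 0.11, -0.26 and -0.02) and did so in formerly obese against control mice (log2 -0.43, -0.43, -0.47, -0.92 and -0.73). Jun and Klf10 passed them in neither (log2 0.16 and 0.26 in obese, -0.25 and -0.30 in formerly obese against control mice).

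**Figure D4:**
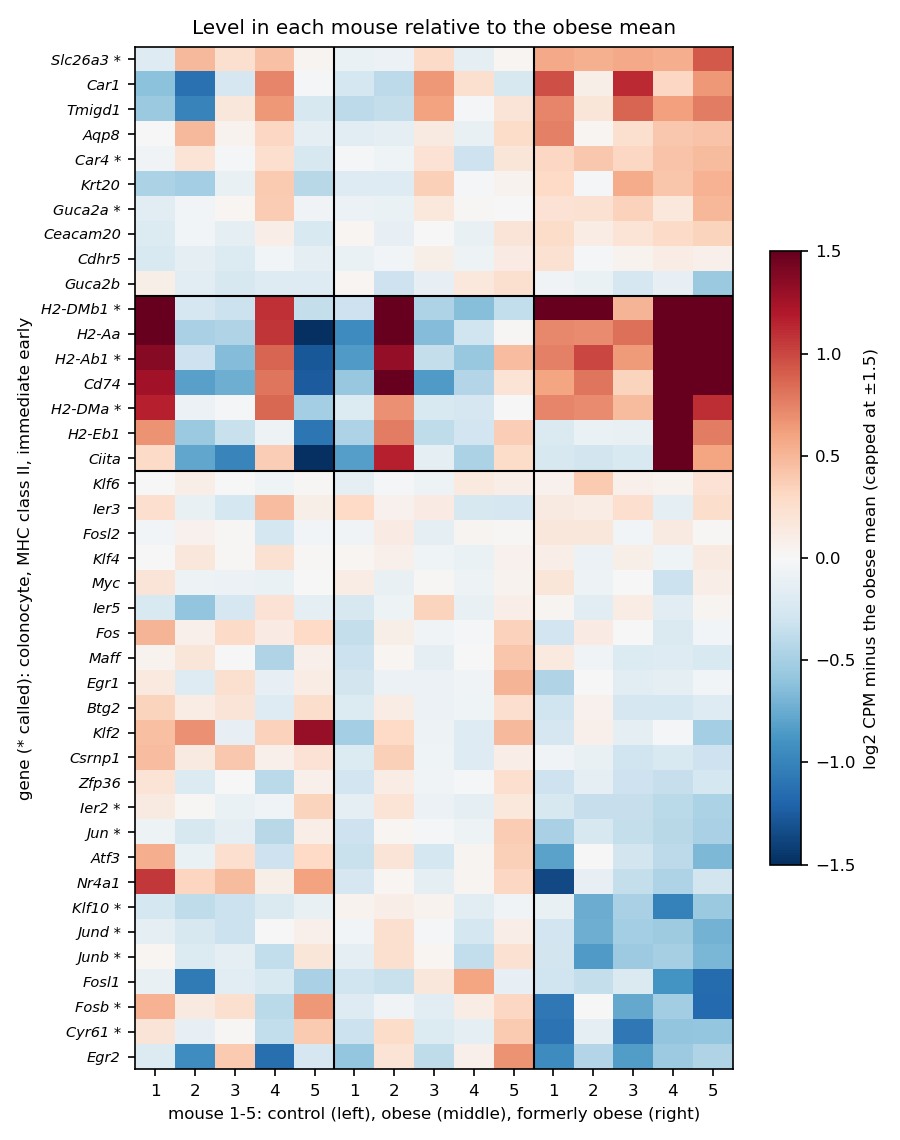
Rows are the tested colonocyte, MHC class II and immediate early genes, columns the 15 mice, and colour gives log2 CPM minus the mean of the obese mice, capped at 1.5 in either direction. Asterisks mark called genes. The 3 called colonocyte genes are above the obese mean in all 5 formerly obese mice, the 7 MHC class II genes are all at the upper cap in formerly obese mouse 4, and Jund, Junb and Ier2 are below the obese mean in all 5 formerly obese mice.

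Genes of MHC class II, which present antigens to T cells, included 3 that were higher, with values that differed widely between mice of a group. Of 8 listed 7 were tested, of which H2-DMb1, H2-Ab1 and H2-DMa were called higher, against 1.23% of all tested genes. An unadjusted p under 0.05 was reached by 5, and the median was 1.596. Without formerly obese replicate 4 the median was 0.74, without obese replicate 2 it was 2.15, and 0 to 5 of the 7 were called over the 10 repeats that left out 1 mouse. H2-Ab1 (chr17:34263227-34269418) was at 4.47, 20.4, 6.31, 5.43 and 11.2 CPM in obese mice and 13.7, 16.4, 12.7, 79.3 and 30.8 CPM in formerly obese mice. Formerly obese mouse 4 held the highest value, obese mouse 2 lay above 3 of the formerly obese mice, and the log2 fold change was 1.68 ± 0.56 (adjusted p = 0.191). H2-DMb1 was at 1.13, 5.20, 1.00, 0.873 and 1.08 CPM in obese mice and 4.66, 5.14, 2.09, 19.7 and 8.20 CPM in formerly obese mice, and H2-DMa at 3.17 ± 1.05 CPM in obese and 7.53 ± 5.00 CPM in formerly obese mice. Each of the 3 calls was lost without obese replicates 1, 3, 4 or 5 and without formerly obese replicates 4 or 5. Without formerly obese replicate 4 the log2 fold changes were 0.94 for H2-Ab1, 1.42 for H2-DMb1 and 0.74 for H2-DMa, and without the other 5 they were at most 1.742, 1.92 to 2.08 and 1.18 to 1.28. The 18 immune cell markers summed to 73.7 to 112 CPM in obese and 61.9 to 100.2 CPM in formerly obese mice, 0 of the 11 tested were called, the leukocyte gene Ptprc stood at 11.7 to 24.7 CPM in obese and 10.7 to 23.9 CPM in formerly obese mice, and the B cell gene Cd79a at 0.0624 to 1.80 and 0.0583 to 0.223 CPM. The part of immune cells in the class II difference was not tested.

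Among 24 interferon-stimulated genes 1 was called, against 2.65% of all tested genes. It was Oas1a, which senses double-stranded RNA (log2 0.28, adjusted p = 0.142), and its call was lost without obese replicates 1, 3 and 5 and formerly obese replicate 5 (log2 0.21 to 0.27). This single call is not read as a result about the list. Among 9 genes of the butyrophilin-like family and their lymphocyte partners, Btnl1 and Btn1a1 were called higher. Btnl1, which epithelial cells show to gamma delta T cells, was at 126 ± 11.97 CPM in obese and 155 ± 9.33 CPM in formerly obese mice (log2 0.30, adjusted p = 0.0828), with its call lost without formerly obese replicate 1 (log2 0.26). Btn1a1 (log2 0.74, adjusted p = 0.192) kept its call in 2 of the 10 repeats that left out 1 mouse, those without formerly obese replicates 2 and 4, and had a log2 fold change of 0.46 without formerly obese replicate 5. Of 17 antimicrobial and inflammation genes 0 were called, among them the lectins Reg3b and Reg3g (log2 1.43 and 1.34). Reg3b was at 377, 17.2, 136, 108 and 441 CPM in obese mice and 283, 54.7, 1841, 142 and 579 CPM in formerly obese mice, a spread within each group wider than the difference between their means.

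Few markers of the other epithelial cell types were called, with 2.65% of all tested genes called. Of 18 stem cell genes and Wnt targets, Ccnd2 and Prom1 were called higher. Ccnd2 (chr6:127125709-127151048), cyclin D2, was at 244, 229.8, 236, 219 and 221 CPM in obese mice and 271, 295, 283, 294 and 357 CPM in formerly obese mice. The groups did not overlap (log2 0.38, adjusted p = 0.0297). The log2 fold change was -0.52 in obese against control mice (adjusted p = 0.0035) and -0.14 in formerly obese against control mice. Prom1 (log2 0.28, adjusted p = 0.1) fell under the fold or adjusted p cutoff without obese replicate 2 and formerly obese replicates 1 and 3 (log2 0.23, 0.25 and 0.25). The stem cell gene Lgr5 was at 26.9 against 24.4 CPM. Of 14 goblet cell genes 1 was called, Ang4, an antimicrobial ribonuclease, at 55.7, 51.8, 34.0, 74.2 and 35.5 CPM in obese mice and 48.5, 128, 191, 50.6 and 143 CPM in formerly obese mice. Formerly obese mice 1 and 4 lay within the obese range (log2 1.16, adjusted p = 0.193), and the call was kept in 3 of the 10 repeats that left out 1 mouse, those without obese replicate 4 and formerly obese replicates 1 and 4, with a log2 fold change of 0.88 without formerly obese replicate 3. DESeq2 did not call it (log2 1.16). Muc2, the main mucin, was at 2755 against 2875 CPM (log2 0.06). Of 15 enteroendocrine genes, Pyy, a satiety hormone of the distal gut, was called lower (log2 -0.35, adjusted p = 0.163) and kept its call in 4 of the 10 repeats, those without obese replicates 4 and 5 and formerly obese replicates 3 and 5, with log2 -0.28 without obese replicate 3. Chga, a general marker of these cells, was at 59.3 against 53.3 CPM (log2 -0.15).

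Genes of position, fate and time gave 1 or 2 calls per list, against 2.65% of all tested genes called. In lists this short, 1 or 2 calls are not read as results about a list. Of 12 posterior Hox genes, which mark the hind part of the gut, Hoxd9 and Hoxd10 were called lower, 6 had an unadjusted p under 0.05 with a negative log2 fold change, and the median was -0.22. Hoxd10 was at 7.12 ± 1.42 CPM in obese and 5.01 ± 0.985 CPM in formerly obese mice (log2 -0.51, adjusted p = 0.197) and Hoxd9 at 0.882 ± 0.190 CPM in obese and 0.551 ± 0.0757 CPM in formerly obese mice (log2 -0.68, adjusted p = 0.194). Hoxb13, with 319.6 ± 32.8 CPM in obese and 275 ± 30.3 CPM in formerly obese mice, had a log2 fold change of -0.22 and did not pass the fold cutoff. Hoxd9 and Hoxd10 both lost the call without obese replicates 1, 2 and 5 and formerly obese replicates 1, 3 and 5 (log2 -0.57 to -0.70 and -0.40 to -0.52), and Hoxd9 also without formerly obese replicate 4 (log2 -0.71). Hoxa7, of the 16 anterior Hox genes, was at 29.1 ± 2.73 CPM in obese and 22.9 ± 2.01 CPM in formerly obese mice, without overlap (log2 -0.35, adjusted p = 0.0812). Of 15 Notch and secretory fate genes, the ligand Dll1 (log2 -0.34, adjusted p = 0.178) and Hes6 (log2 -0.27, adjusted p = 0.0812) were called lower. Dll1 lost its call without obese replicates 1, 2, 3 and 5 and formerly obese replicates 2, 3 and 5 (log2 -0.36 to -0.30), and Hes6 without obese replicate 3 and formerly obese replicates 1, 3 and 5 (log2 -0.26 to -0.24). With the GC trend removed, Hes6 had a log2 fold change of -0.12. Of 19 circadian clock genes, Ccrn4l, the rhythmic gene of Nocturnin, was called higher at 52.6 ± 6.70 CPM in obese and 66.8 ± 5.29 CPM in formerly obese mice (log2 0.34, adjusted p = 0.079), and Per1, a repressor of the clock, was called lower at 59.8 ± 6.27 CPM in obese and 44.3 ± 8.79 CPM in formerly obese mice (log2 -0.43, adjusted p = 0.192). Per1 kept its call in 4 of the 10 repeats, those without obese replicate 3 and formerly obese replicates 1, 2 and 4, and its log2 fold change was -0.36 without formerly obese replicate 3. The clock activators Arntl and Npas2 had log2 fold changes of 0.41 and 0.44, not called. Formerly obese mice 3 and 5 held the highest levels of Arntl (51.6 and 55.6 CPM) and Npas2 (32.4 and 37.2 CPM) among the 10 mice. The same mice held the lowest levels of Per1 (34.4 and 35.2 CPM). Of 20 feedback regulators, Spred1 was called higher (log2 0.29, adjusted p = 0.152) and Socs1 lower (log2 -0.65, adjusted p = 0.194), with the call lost for Spred1 without obese replicates 1, 2 and 5 and formerly obese replicates 1, 3 and 5 (log2 0.23 to 0.28) and kept for Socs1 without obese replicate 3 and formerly obese replicate 1 alone (log2 -0.53 without formerly obese replicate 2). Of 16 tight junction genes, Cldn8, a claudin of the sealed distal colon, was called higher (log2 0.44, adjusted p = 0.186) and kept without obese replicate 1 and formerly obese replicates 1 and 4 alone (log2 0.30 without formerly obese replicate 5). Hoxd9, Socs1 and Cldn8 were not called by DESeq2 (log2 -0.68, -0.65 and 0.44).

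The remaining genes with the smallest p or the largest fold were of mixed function. Higher in formerly obese mice were Mier3, a partner of histone deacetylases (log2 0.40, adjusted p = 0.026), Cnksr3, which helps aldosterone to act on sodium channels (log2 0.59, adjusted p = 0.0487), Filip1l (log2 0.29, adjusted p = 0.0513), the phosphatase Mtmr4 (log2 0.27, adjusted p = 0.0433), Chp1, a calcium-binding partner of sodium-proton exchangers (log2 0.28, adjusted p = 0.0541), and Akr1c18, which breaks down progesterone (log2 1.43, adjusted p = 0.0919). Akr1c18 was at 1.76, 1.47, 3.42, 0.873 and 1.44 CPM in obese mice and 6.17, 2.51, 5.47, 4.44 and 5.598 CPM in formerly obese mice, low in both groups and overlapping by 1 mouse on each side. Mtmr4 fell under the fold cutoff or adjusted p cutoff without obese replicates 1, 2 and 5 and formerly obese replicates 2 and 5 (log2 0.25 to 0.26), and Chp1 without obese replicate 1 and formerly obese replicate 1 (log2 0.24 and 0.25). Lower were Lrfn4, a synaptic adhesion protein (log2 -0.43, adjusted p = 0.0121), the mitochondrial protein gene Bola1 (log2 -0.70, adjusted p = 0.0292), Pmepa1, a brake on transforming growth factor beta signalling (log2 -0.55, adjusted p = 0.0297), Pigyl (log2 -0.44, adjusted p = 0.035), Wdr6 (log2 -0.31, adjusted p = 0.0433), Irf2bpl (log2 -0.41, adjusted p = 0.0433), the protocadherin Pcdh17 (log2 -0.34, adjusted p = 0.0468), Ppp1r35, a centriole protein (log2 -0.53, adjusted p = 0.0487), Klk15, a secreted protease (log2 -1.36, adjusted p = 0.1), Scand1 (log2 -1.08, adjusted p = 0.0761) and Sprr1a, an envelope protein of squamous cells (log2 -0.94, adjusted p = 0.142). In each of Lrfn4, Bola1, Pmepa1, Pigyl, Wdr6, Irf2bpl, Pcdh17 and Ppp1r35 the groups did not overlap. These genes were named for their small p in the same libraries, so a lack of overlap is no separate support. Of all tested genes, 1.89% did not overlap in this direction and 1.49% in the other. Sprr1a lost its call without obese replicates 3 and 5 and formerly obese replicates 2, 4 and 5 (log2 -0.90 to -0.82). Pmepa1 and Pcdh17 were called higher in obese against control mice (log2 0.35 and 0.45) and had log2 fold changes of -0.19 and 0.10 in formerly obese against control mice. Lrfn4, Wdr6, Pigyl and Bola1 were called lower in formerly obese against control mice (log2 -0.53, -0.40, -0.35 and -0.38). Mier3, Filip1l and Cnksr3 were called higher there (log2 0.42, 0.36 and 0.35). In obese against control mice none of them was called (log2 -0.10, -0.09, 0.09, 0.31, 0.02, 0.07 and -0.23). Mtmr4, Chp1, Akr1c18, Irf2bpl, Ppp1r35, Klk15, Scand1 and Sprr1a were called in neither comparison. Rn45s, the precursor of ribosomal RNA, was at 4493, 3648, 2798, 3165 and 2981 CPM in obese mice and 2631, 2273, 1868, 2031 and 1811 CPM in formerly obese mice, without overlap (log2 -0.69, adjusted p = 0.0479). Rn45s was called lower in formerly obese against control mice (log2 -0.60) and not in obese against control mice (log2 0.08). Its reads come from repeated copies that cannot be placed at 1 locus, and it carries no long poly(A) tail, whereas the libraries were made from poly(A) RNA, whose part in the result was not tested. Mir6236 was at 41.2, 14.5, 9.32, 10.9 and 10.4 CPM in obese mice and 7.22, 6.77, 9.17, 8.77 and 6.79 CPM in formerly obese mice, led by obese mouse 1 (log2 -1.15, adjusted p = 0.128), and its call was lost without formerly obese replicate 5 (log2 -1.10), while its log2 fold change was -0.54 without obese replicate 1. Obese mouse 1 was also the highest for Rn45s. Whether the reads at the Mir6236 locus come from a microRNA was not tested.

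The genes called lower were rich in GC, and the libraries differed in how counts moved with the GC content of the transcript. Their transcripts had a median GC content of 56.6%, against 49.8% for all tested genes and 47.1% for the genes called higher, with values for 175, 12515 and 156 genes. Their median transcript length was 2674 bases, against 3377 for all tested genes and 3023 for the genes called higher. For each library, the log2 CPM of a gene minus its mean over all 15 libraries was regressed on GC content. A slope of 0 is thus the average of the 15 libraries. The slope ran from -0.04 to 0.05 per 10 percentage points in obese mice (median 0.04). In formerly obese mice it ran from -0.09 to 0.01 (median -0.03). The groups overlapped through obese mouse 4, which lay below 3 of the formerly obese mice. The part of this trend in the single results was not tested beyond its removal. Removing the trend from each library left 279 called genes, 148 higher and 131 lower. These held 123 of the 159 genes called higher before and 111 of the 184 called lower. Of the 72 called genes that were named, 54 kept their calls. Lrfn4, Wdr6, Ier2 and Hes6 lost theirs with log2 fold changes of -0.21, -0.25, -0.24 and -0.12. The call was also lost with log2 fold changes near those before for Mtmr4, Chp1, Prom1, Spred1, Btn1a1 and Cldn8 (0.26, 0.26, 0.26, 0.26, 0.72 and 0.41) and with smaller ones for Pyy, Socs1, Per1 and Hoxd9 (-0.29, -0.56, -0.34 and -0.55). The ribosomal and proteasome genes Rplp1, Rps12, Mrps12 and Psmb10 lost theirs at log2 fold changes of -0.23, 0.26, -0.26 and -0.22, while Scd1, Slc26a3, Car4, Slc13a2, Slc16a12, Trf and Jund kept theirs (log2 1.33, 0.60, 0.37, 0.42, -0.95, -0.69 and -0.31).

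**Figure D5:**
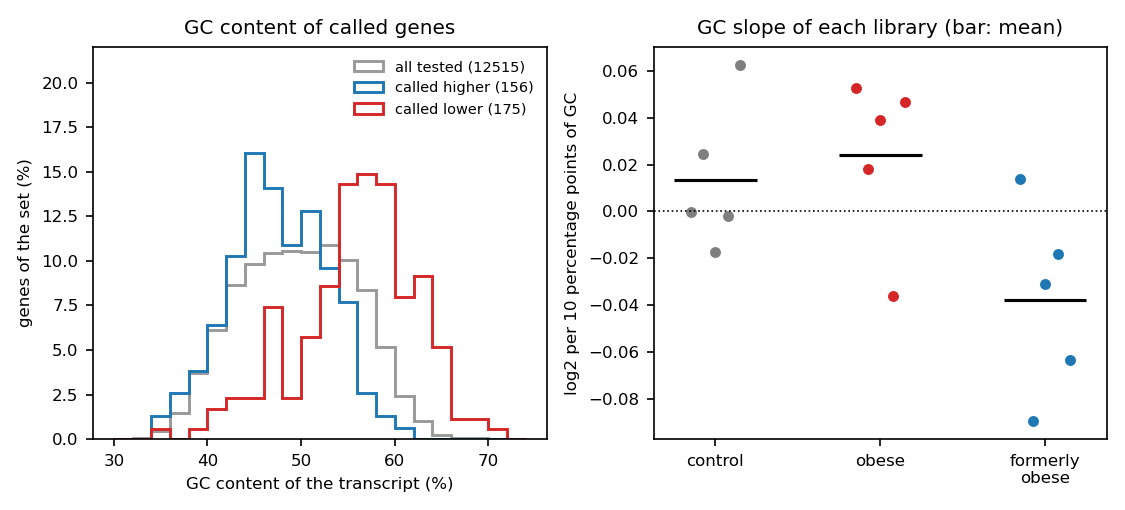
On the left, histograms give the share of all tested genes (grey), genes called higher (blue) and genes called lower (red) by GC content of the longest transcript in percent. On the right, each point is a library, with the group mean as a bar. Its height is the slope on GC content, per 10 percentage points, of log2 CPM minus the gene's mean over the 15 libraries. The genes called lower sit at higher GC (median 56.6%), and 4 of the 5 formerly obese libraries have a slope below the average of the 15 libraries.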

How the data were processed

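Colonic epithelial RNA of 15 mice was sequenced as stranded mRNA libraries, and the authors deposited 1 table of raw read counts per gene for all libraries. Per the labels and the study's methods, reads were trimmed with cutadapt, aligned to mm10 with TopHat2 2.0.4 and counted with HTSeq. The strand setting and annotation release of the counting are not given in the sources used here, so genes that overlap, lie antisense or share reads with near copies are uncertain. The deposited tables of the authors' own comparisons (fold changes and p-values), methylation percentages and differentially methylated regions were not used here.

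Counts were filtered (filterByExpr) and fitted in edgeR 4.0.16 (R 4.3.3) with TMM scaling and glmQLFTest, all 15 libraries in 1 model of group, which left 12961 of 24918 entries. Cutoffs followed the study's methods (fold over 1.2, p under 0.01, adjusted p under 0.25). The fit was tested on simulated data first. CPM values used the scaled totals. Log2 fold changes of the edgeR fits used its default prior count, and a prior count of 2 entered log2 CPM values only. Named genes were the 12 called genes per direction with the smallest p and the 4 with the largest fold, at a mean of at least 50 counts and leaving out predicted genes and repeated symbols, and each called member of 48 gene lists. Each list also gave up to 3 uncalled members with the smallest p and up to 3 members with the highest mean level in obese mice. Hoxb13 and the other cell type markers were added as values. The members, lists and tests were chosen with earlier results of these data known. Transcript GC content came from GENCODE M21 and was matched for 96.6% of tested genes. Samples labelled replicates of a group were separate mice, and no pair of libraries agreed within sampling noise (their chi-square over genes was 5.47 to 19.6 times its degrees of freedom). Same-numbered mice were not treated as pairs. Totals were compared with an exact permutation test (scipy 1.17.1), whose smallest possible p is 0.00794. Alternatives were DESeq2 1.42.0, upper-quartile scaling, 2 other count filters, the 10 libraries alone, a replicate block, removal of each library's GC trend, thinning to equal totals and leaving out each mouse, and leaving out each mouse for the totals was chosen after seeing the data. With counts of this depth, low genes keep counting error on top of the spread between mice.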

Additional observations from a re-analysis of the deposited data

Results flagged for a closer look

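In 148 groups of 5 mice, formed by the levels of 72 called genes, the library totals and the GC slopes in obese and formerly obese mice, 11 values stood far from the other 4 mice of their group by Dixon's test, which chance does in about 1 in 20 groups. Obese mouse 4 had the highest Scd1 level, 22.9 CPM against 17.8 to 18.7 CPM in the others, still under each formerly obese mouse. Formerly obese mouse 5 was highest for Ccnd2, with 357 CPM against 271 to 295 CPM, and for Slc26a3, with 1764 CPM against 1354 to 1386 CPM. Both genes kept their call without this mouse. Formerly obese mouse 1 was lowest for Slc16a12, with 3.96 CPM against 5.32 to 5.71 CPM, and highest for Cyp2c55, with 1761 CPM against 991 to 1198 CPM. Obese mouse 3 was highest for Ces1f, with 121 CPM against 89.3 to 97.8 CPM. Mir6236 was at 41.2 CPM in obese mouse 1 and at 9.32 to 14.5 CPM in the others.

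The MHC class II genes gave 4 of the 11. Obese mouse 2 had 5.20 CPM of H2-DMb1 against 0.873 to 1.13 CPM and 5.01 CPM of H2-DMa against 2.56 to 3.06 CPM. Formerly obese mouse 4 had 79.3 CPM of H2-Ab1 against 12.7 to 30.8 CPM and 16.3 CPM of H2-DMa against 4.32 to 6.73 CPM.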

How the results depend on the processing

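The number of called genes was 343 as reported and lay between 279 and 377 with DESeq2 (366), upper-quartile scaling (351), no count filter (377), at least 10 counts in every library (322), the 10 libraries alone (353), the GC trend removed (279) and thinning to equal totals (343). The share of calls that were higher was 46.4% as reported, 53.0% with the GC trend removed and 39.6% with upper-quartile scaling. Without 1 mouse the count ran from 167 to 400, with 195 without obese replicate 1, 209 without obese replicate 2 and 167 without formerly obese replicate 5, and the cause was not tested. With no fold cutoff and the adjusted p held under 0.05, edgeR called 25 genes and DESeq2 263. Of the 72 named called genes, 45 to 64 were called without 1 mouse, 54 with the GC trend removed, 67 to 71 under DESeq2, upper-quartile scaling, the other filters, the 10 libraries or thinning, and 21 at an adjusted p under 0.05, and none changed direction. Without the control libraries Btn1a1, Socs1, Spred1 and Hoxd9 were not called, at log2 fold changes of 0.74, -0.65, 0.29 and -0.68, the same to 2 decimals as with them. The difference in library totals ran from 1192019 to 2853902 counts without 1 mouse.

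Replicate numbers did not pair the mice. The correlation between obese and formerly obese mice of 1 number was -0.03, 0.16, 0.33, -0.14 and -0.09, and 2 of 5 mice matched their own number best. The replicate block gave 346 called genes, with 64 of the 72 named ones among them, and 290 with the GC trend removed as well.

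Depth limits genes under about 1 CPM, where a library of this size holds few counts. The 2 groups also differed in mean total, and 5 mice per group limit the estimate of the spread.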

Other observations

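Several lists without a called gene leaned to 1 side. Among 24 proliferation genes, 22 had a positive log2 fold change, the median was 0.23, and 2 had an unadjusted p under 0.05, the mitotic kinases Bub1 and Aurka (log2 0.46 and 0.40). Mki67, the usual marker of cycling cells, was at 195 against 228 CPM (log2 0.23). Formerly obese mice 3 and 5, which stood apart on the first principal component, held the highest levels of Mki67, Top2a, Aurka and Ccna2 among the 10 mice. Top2a, which untangles replicated DNA, was at 118, 95.1, 139, 118 and 101 CPM in obese mice and 124, 87.4, 197, 121 and 174 CPM in formerly obese mice. Formerly obese mouse 2 lay below every obese mouse for Top2a, and likewise for Aurka (11.5 CPM) and the cyclin Ccna2 (44.1 CPM). The list median was 0.08 without formerly obese replicate 3, 0.36 without formerly obese replicate 2 and between these without each other mouse. Of 12 listed tuft cell genes 10 were tested, all with a positive log2 fold change and a median of 0.26, and 4 had an unadjusted p under 0.05, among them Dclk1, the kinase that marks these cells, at 19.8 against 23.6 CPM, and Pou2f3, their lineage factor, at 2.38 against 3.28 CPM. Over all tested genes, 6604 of 12961 log2 fold changes were positive and the median was 0.0023.

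Genes of the respiratory chain leaned the other way by small amounts. Of 79 genes of the respiratory chain and ATP synthase, 13 had an unadjusted p under 0.05 with a negative and 1 with a positive log2 fold change, the median was -0.03 and none was called. Cox8a, a subunit of cytochrome c oxidase, was at 429.8 against 366 CPM (log2 -0.23, under the fold cutoff), while Atp5b, the catalytic subunit of ATP synthase, was at 2617 against 2623 CPM. Of 75 mitochondrial ribosomal protein genes, 37 had a positive and 38 a negative log2 fold change, 14 had an unadjusted p under 0.05 with a negative and 1 with a positive log2 fold change, and Mrps10 and Mrps12 were called lower (log2 -0.26 and -0.31). Mrps10 lost its call without obese replicates 1 and 3 and formerly obese replicates 1, 2 and 5 (log2 -0.26 to -0.24), and Mrps12 without obese replicates 1, 2 and 3 and formerly obese replicates 2, 4 and 5 (log2 -0.30 to -0.27). Of 78 cytosolic ribosomal protein genes, 37 had a positive log2 fold change, Rps12 was called higher (log2 0.28), and Rplp1 and Rps4l lower (log2 -0.30 and -0.65), in a family whose near copies make the split of reads uncertain. Rplp1 lost its call without formerly obese replicate 2 (log2 -0.25), and Rps12 without formerly obese replicates 1 and 3 (log2 0.26 and 0.25). Psmb10, the immunoproteasome subunit, was the 1 called gene of 37 of the proteasome (log2 -0.27) and lost its call without obese replicates 1 and 2 and formerly obese replicates 1, 3 and 5 (log2 -0.26 to -0.22). Calls covered 2.65% of the 12961 tested genes, and the ribosomal and proteasome lists lay near that share. Their calls are therefore not read as results about these families. Of all tested genes, 914 had an unadjusted p under 0.05 with a negative and 817 with a positive log2 fold change.

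Nuclear receptors, which sense lipids and hormones, had 5 genes on each side with an unadjusted p under 0.05 and 0 called of 21. Pparg, a fatty acid receptor of the colon, was at 95.5 against 109 CPM without overlap (log2 0.20, adjusted p = 0.0812), and Vdr, the vitamin D receptor, at 685 against 784 CPM (log2 0.20, adjusted p = 0.114), both under the fold cutoff. Esrra, which drives mitochondrial genes, was at 182 against 159 CPM (log2 -0.20, adjusted p = 0.118). Of 14 DNA methylation enzymes 0 were called, with Dnmt1 at 86.9 against 90.7 CPM (log2 0.06).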
